A study of Mus musculus with 12 samples.

Results

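The levels of 10 genes for the enzymes of nitric oxide, itaconate and eicosanoid synthesis and for mitochondrial superoxide dismutase were followed in 12 mouse RNA-seq libraries. The genes were Nos2, Ass1, Gch1, Acod1, Ptgs1, Ptgs2, Ptges, Alox5, Alox5ap and Sod2. They were found by symbol among the 55335 genes of the deposited count table, and each had 1 row. Both cell sources came from male littermates given as 6 weeks old in the labels (for livers, at the start of the diet; the study's methods allow up to 8 weeks for BMDMs), either Tshr f/f (floxed alleles of the thyrotropin receptor and no Cre) or Tshr MKO (the same floxed alleles with Cre under the Lyz2 promoter, which is active in myeloid cells). Bone marrow-derived macrophages (BMDMs) of both genotypes were grown with M-CSF at 10 ng/mL over 7 days and then received thyrotropin (TSH) at 1 ng/mL for 24 h, so no library was free of TSH. The livers came from mice of both genotypes on a high-fat diet for 9 weeks that had been fasted for 8 h and given insulin at 1.5 U/kg 5 min before death. Each of the 4 groups had 3 libraries. The study's methods give 3 mice per group for each source.

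The inducible nitric oxide synthase encoded by Nos2 makes nitric oxide from arginine, which argininosuccinate synthase (Ass1) helps to regenerate from citrulline, and needs tetrahydrobiopterin, whose synthesis begins with GTP cyclohydrolase (Gch1). Acod1 encodes the mitochondrial enzyme that makes itaconate from cis-aconitate in activated macrophages. Cyclooxygenases turn arachidonic acid into prostaglandin H, through the constitutive isozyme (Ptgs1) or the inducible one (Ptgs2), and microsomal prostaglandin E synthase (Ptges) then makes prostaglandin E. In the leukotriene branch, 5-lipoxygenase (Alox5) works with its activating protein (Alox5ap). Manganese superoxide dismutase (Sod2) removes superoxide in mitochondria. In hepatocytes, Ass1 belongs to the urea cycle.

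Promoter sequence was on hand for 8 of the 10 genes (RefSeq, GRCm38.p6), without Nos2 and Alox5ap. The 250 bases before the start are printed for both cyclooxygenase genes, whose levels lay on opposite sides between the genotypes in BMDMs, and for Gch1. They run 5′ to 3′ on the strand of the gene, with motif matches in capitals. The Ptgs2 window is chr1:150099781-150100030 on the plus strand, the Ptgs1 window chr2:36230176-36230425 on the plus strand and the Gch1 window chr14:47189414-47189663 on the minus strand.
Ptgs2: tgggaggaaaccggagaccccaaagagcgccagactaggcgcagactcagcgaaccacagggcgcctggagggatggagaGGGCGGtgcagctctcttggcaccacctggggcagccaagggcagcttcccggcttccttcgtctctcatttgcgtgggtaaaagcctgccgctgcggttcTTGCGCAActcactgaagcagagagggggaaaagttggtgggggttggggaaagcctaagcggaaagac
Ptgs1: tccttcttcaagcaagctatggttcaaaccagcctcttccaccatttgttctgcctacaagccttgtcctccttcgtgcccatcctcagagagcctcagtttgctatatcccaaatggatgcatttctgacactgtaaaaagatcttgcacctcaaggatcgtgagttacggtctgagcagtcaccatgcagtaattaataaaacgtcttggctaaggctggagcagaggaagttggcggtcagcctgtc
Gch1: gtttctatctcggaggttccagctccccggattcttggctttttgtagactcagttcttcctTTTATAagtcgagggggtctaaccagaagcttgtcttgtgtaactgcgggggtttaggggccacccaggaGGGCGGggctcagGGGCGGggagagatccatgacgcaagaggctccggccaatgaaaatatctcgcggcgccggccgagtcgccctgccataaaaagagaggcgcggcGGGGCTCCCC

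Both strands were searched for 7 motifs, and the share of 32851 promoters of the same length that hold each one is given with it. The motifs were NF-κB (by name, 7.25%), the C/EBP core TTGCNNAA (9.56%), ACGTCA of the cAMP response element (6.47%), AP-1 TGANTCA (6.75%), the TATA box TATAAA (12.4%), the GC box GGGCGG (32.7%) and the interferon-gamma activated sequence TTCNNNGAA (7.02%). Ptgs2 held 1 C/EBP match, 69 bases before the start, and 1 GC box. Gch1 held 1 NF-κB match, 10 bases before the start, 2 GC boxes and 1 TATA match on the opposite strand. Ptgs1 held none of the 7. In the windows not printed, Sod2 held 1 NF-κB match, 83 bases before the start, 4 GC boxes and 1 interferon-gamma motif, and Acod1 a TATA box 28 bases before the start. The C/EBP and NF-κB matches fitted their motif on both strands and were counted once, and none of these matches overlapped another motif. Ptges held 2 GC boxes, and Alox5 and Ass1 1 each. The RefSeq starts of Ptges (chr2:30903297) and Sod2 (chr17:13007839) lie inside the gene spans given below. Those of Acod1 and Ass1 also lie inside, by fewer bases. A match describes the letters of a window and no binding.

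Library totals were 33683981 to 40954211 counts in BMDMs and 28962878 to 40420513 in livers. BMDM f/f replicate 3 stood apart, with a TMM scaling factor of 0.738 against 0.993 to 1.11 in the other 5 BMDM libraries, and BMDM results are also given without it. Tshr had 0 to 5 counts in BMDMs and 0 in livers, so its deletion could not be checked. Adgre1 and Csf1r, which define macrophages, were at 752 to 1132 and 1142 to 1929 CPM (counts scaled to a library size of 1000000) in BMDMs, and 8 hepatocyte markers summed to at most 0.0576 CPM there. In livers the hepatocyte markers summed to 112897 to 148292 CPM. The 8 macrophage markers summed to 11190 to 13195 CPM in f/f BMDMs and 14791 to 22164 in MKO BMDMs, mostly from Lyz2, the locus that also drives Cre, and their part in the results was not tested. The liver libraries that the labels call MKO are headed as the opposite genotype in a supplementary table of the study, and the directions for liver below follow the labels, as do the tests that combine livers and BMDMs.

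In TSH-treated BMDMs, 7 of the 10 genes had lower levels in MKO than in f/f in every pair of libraries: Nos2, Ass1, Gch1, Acod1, Ptgs2, Ptges and Sod2. Ptgs1 and Alox5ap lay higher without overlap, and the Alox5 groups overlapped. Over 15372 genes tested, 14% lay lower and 14.8% higher in MKO with groups that did not overlap. At an unadjusted p under 0.05 (edgeR quasi-likelihood test), the same 7 genes were lower and Ptgs1 was higher, all by at least 2-fold, where 10.2% of all genes were lower and 7.73% higher, or 5.52% and 3.3% with a fold of at least 2. None of the 10 passed an adjusted p of 0.05, nor did any other gene (lowest adjusted p 0.218, with 2756 genes at an unadjusted p under 0.05). DESeq2 called 1100 of 25135 genes (4.38%) at that threshold, with 5 of the 10 among them. The median log2 fold change of the 10 genes was -2.40, against 0.01 over all genes. Without f/f replicate 3 the median was -1.62, and 7 genes were again lower and 1 higher at an unadjusted p under 0.05, where 7.4% of 15925 genes were lower and 7.85% higher. Ptges was then the only one of the 10 past the adjusted threshold, which 2 genes passed in all.

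**Figure D1:**
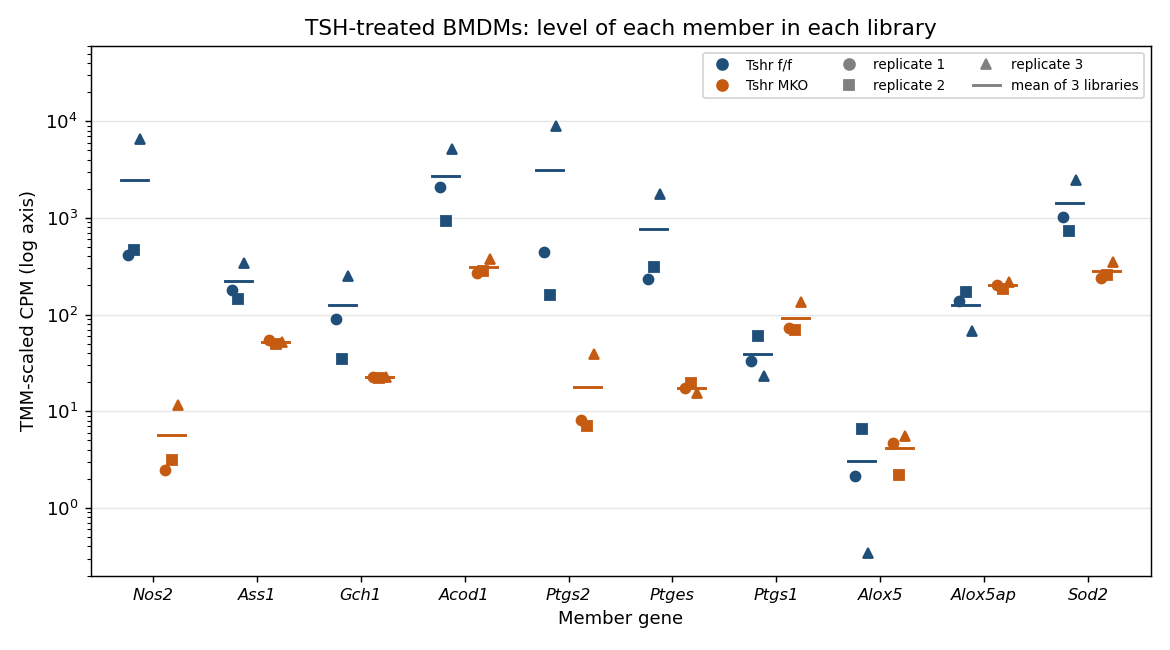
TMM-scaled CPM (log axis) of the 10 genes in the 6 BMDM libraries, with 1 point per library, a shape per replicate and a line at each group mean. The MKO points lie below all f/f points for 7 genes, and f/f replicate 3 (triangles) is the highest f/f point for those 7 and the lowest for Ptgs1, Alox5 and Alox5ap.

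Nos2 (ENSMUSG00000020826, chr11:78920787-78960254, GRCm38, plus strand) was at 411, 470 and 6550 CPM in f/f BMDMs and at 2.45, 3.15 and 11.6 CPM in MKO BMDMs. The lowest f/f library was thus far above the highest MKO library, while f/f replicate 3 was 14.9 times the mean of the other 2 f/f libraries. This gave a log2 fold change of -8.75 ± 1.67 (SE, adjusted p = 0.218). It was -6.27 without f/f replicate 3 (adjusted p = 0.0805), and the mean of f/f replicates 1 and 2 was 76.7 times the MKO mean. DESeq2 gave no p for Nos2.

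Ass1 (ENSMUSG00000076441, chr2:31470207-31520672, plus strand) had 178, 143 and 345 CPM in f/f and 54.9, 49.5 and 51.5 CPM in MKO. The MKO libraries were close together, with a coefficient of variation of 5.19% against 48.6% in f/f. The log2 fold change was -2.09 ± 0.34 (SE, adjusted p = 0.218) and -1.63 without f/f replicate 3. Counts of Gm5424, a predicted gene nearly identical to Ass1, were 9.57% to 10.6% of those of Ass1 in every BMDM library, so reads may be divided between the copies in a like ratio.

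Gch1 (ENSMUSG00000037580, chr14:47153895-47189413, minus strand) had 89.8, 34.6 and 253 CPM in f/f and 22.8, 21.8 and 22.5 CPM in MKO. It had the smallest spread of the 10 genes in MKO, at a coefficient of variation of 2.27% (90.3% in f/f). Replicate 2 of f/f lay closest to the MKO values. Its log2 fold change was -2.49 ± 0.68 (SE, adjusted p = 0.218) and -1.48 without f/f replicate 3. The 3 genes of the nitric oxide branch were therefore lower in each MKO library than in any f/f library, with Nos2 by far the most.

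Of 18 other genes of arginine, tetrahydrobiopterin and nitric oxide metabolism tested in BMDMs, 4 were lower and 1 higher in MKO with an unadjusted p under 0.05, 0 after adjustment, and the median was -0.03. The counts were 4 lower and 3 higher and the median -0.11 without f/f replicate 3. The arginine importer Slc7a2 was at 136, 280 and 1706 CPM in f/f and 62.3, 39.7 and 68.8 CPM in MKO, with a log2 fold change of -3.63 ± 0.99 (SE), or -1.87 without f/f replicate 3. The importer Slc7a1 had 80.3, 63.6 and 108 CPM in f/f and 39.9, 46.0 and 24.8 CPM in MKO (log2 fold change -1.18 ± 0.29 SE, -0.96 without f/f replicate 3). Neither importer had groups that overlapped. Gucy1a1, a subunit of the guanylate cyclase that senses nitric oxide, was higher in MKO by 2.10 ± 0.71 (log2, SE; 1.70 without f/f replicate 3), at levels of 0.346 to 8.40 CPM in the 6 libraries. The others at that limit were Ddah1, which degrades methylarginines that inhibit the synthases (-1.33, and -1.52 without f/f replicate 3), and Odc1, which makes putrescine from ornithine (-1.88, but -0.60 without f/f replicate 3), both named after their values were seen.

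Acod1 (ENSMUSG00000022126, chr14:103046977-103056573, plus strand) had 2109, 921 and 5191 CPM in f/f BMDMs and 271, 282 and 376 CPM in MKO BMDMs. It remained strongly expressed in MKO, unlike Nos2, but the groups did not overlap. The log2 fold change was -3.15 ± 0.64 (SE, adjusted p = 0.218) and -2.30 without f/f replicate 3. Around Acod1, 16 genes of citrate, itaconate and succinate metabolism were tested, of which 0 were lower and 2 higher in MKO at an unadjusted p under 0.05, with a median of 0.07. Leaving out f/f replicate 3 gave 1 lower and 4 higher and a median of -0.06. The 2 with all libraries were Slc25a10, the mitochondrial dicarboxylate carrier (0.75 ± 0.22, log2, SE), and Aco1, the cytosolic aconitase (0.41 ± 0.15), at 0.58 and 0.29 without that library. The large difference of Acod1 thus had no counterpart of that size among the other genes of the list.

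Ptgs2 (ENSMUSG00000032487, chr1:150100031-150108227, plus strand) was at 448, 161 and 8840 CPM in f/f BMDMs and 8.17, 7.01 and 38.8 CPM in MKO BMDMs. Its range within f/f was the widest of the 7 genes that were lower in MKO, at 54.9-fold, and f/f replicate 3 was 29.05 times the mean of the other 2 f/f libraries. Its log2 fold change was -7.45 ± 1.94 (SE, adjusted p = 0.218) and -4.10 without f/f replicate 3 (adjusted p = 0.153). DESeq2 gave no p for Ptgs2.

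Ptges (ENSMUSG00000050737, chr2:30889471-30929863, minus strand), which acts next after the cyclooxygenases, had 234, 313 and 1768 CPM in f/f and 17.4, 19.5 and 15.6 CPM in MKO. The log2 fold change was -5.46 ± 0.92 (SE, adjusted p = 0.218). Without f/f replicate 3 it was -3.96 with an adjusted p of 0.0234. With all 12 libraries in 1 fit, Ptges, Ass1 and Sod2 passed the adjusted threshold, as did 150 of 17246 genes (0.87%).

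Ptgs1 (ENSMUSG00000047250, chr2:36230426-36252272, plus strand) ran the other way, at 33.4, 59.9 and 23.4 CPM in f/f and 72.7, 69.9 and 135 CPM in MKO. The gap between the highest f/f and the lowest MKO library was narrow. Its log2 fold change was 1.25 ± 0.42 (SE, adjusted p = 0.239) and 0.99 without f/f replicate 3. Within a library, counts of Ptgs2 per kb of exon were 11.4, 2.28 and 320 times those of Ptgs1 in f/f, and 0.0953, 0.0851 and 0.244 times those of Ptgs1 in MKO. The inducible isozyme thus had the higher level per length in the 3 f/f libraries and the constitutive isozyme in the 3 MKO libraries, a ratio that needs no scaling between libraries.

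Among 24 other prostanoid genes tested, 6 were lower and 4 higher in MKO BMDMs with an unadjusted p under 0.05, and 0 after adjustment, and the median was 0.16. With f/f replicate 3 left out, 5 were lower and 5 higher, and the median was again 0.16. Pla2g4a, the cytosolic phospholipase that releases arachidonic acid, was at 132.8, 91.3 and 320 CPM in f/f and 48.05, 48.2 and 55.02 CPM in MKO (log2 fold change -1.85 ± 0.46 SE, -1.15 without f/f replicate 3). Hpgds, which makes prostaglandin D, was at 80.0, 27.4 and 57.0 CPM in f/f and 180, 191 and 151 CPM in MKO (1.67 ± 0.38, and 1.69 without that library). The lysosomal phospholipase Pla2g15 had 93.3, 54.6 and 29.5 CPM in f/f and 180, 156 and 169 CPM in MKO (1.51 ± 0.40, and 1.19 without it). The groups of these 3 genes did not overlap.

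Alox5 (ENSMUSG00000025701, chr6:116410077-116461178, minus strand) was low in BMDMs, at 2.16, 6.57 and 0.346 CPM in f/f and 4.70, 2.19 and 5.52 CPM in MKO. The groups overlapped, and the log2 fold change of 0.44 ± 0.90 (SE, adjusted p = 0.808) was smaller than its error. It turned to -0.08 without f/f replicate 3, which had 9 counts. Alox5ap (ENSMUSG00000060063, chr5:149264767-149288153, plus strand) was at 139, 172 and 68.2 CPM in f/f and 203, 184 and 218 CPM in MKO. These groups did not overlap, but the log2 fold change of 0.67 ± 0.33 (SE, adjusted p = 0.334) did not pass at an unadjusted p under 0.05, and it was 0.37 without f/f replicate 3.

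Of 16 other leukotriene and lipoxygenase genes tested, 2 were lower and 6 higher in MKO BMDMs with an unadjusted p under 0.05, and 0 after adjustment, with a median of 0.64. Without f/f replicate 3 the counts were 3 lower and 6 higher of 17 and the median 0.47. Fpr2, a receptor for lipoxin and formyl peptides, had 490, 430 and 1570 CPM in f/f and 61.0, 66.0 and 86.5 CPM in MKO (log2 fold change -3.54 ± 0.58 SE, -2.69 without f/f replicate 3). Cotl1, which binds 5-lipoxygenase, was at 202 to 334 CPM in f/f and 481 to 563 CPM in MKO (0.90 ± 0.24, and 0.70 without it). Ltc4s, the leukotriene C synthase, was low but higher in MKO, at 1.38, 1.19 and 0.614 CPM in f/f and 2.48, 2.72 and 5.45 CPM in MKO (1.73 ± 0.46, and 1.46 without it). In all, 11 of the 16 genes had a positive log2 fold change, where 7802 of all 15372 genes tested did.

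Sod2 (ENSMUSG00000006818, chr17:13006846-13040063, plus strand) had 1018, 727 and 2487 CPM in f/f and 241, 260 and 351 CPM in MKO. The log2 fold change was -2.31 ± 0.50 (SE, adjusted p = 0.218) and -1.62 without f/f replicate 3, with groups that did not overlap. Among 28 other genes of superoxide and peroxide handling, 12 were lower and 1 higher in MKO with an unadjusted p under 0.05, and 0 after adjustment, with a median of -0.52. Without f/f replicate 3 the counts were 11 and 2 and the median -0.34. Slc7a11, the cystine importer that feeds glutathione synthesis, had 209, 360 and 2291 CPM in f/f and 24.0, 19.2 and 44.6 CPM in MKO (log2 fold change -5.02 ± 1.07 SE, but -3.28 without f/f replicate 3). The peroxiredoxin Prdx5 had 936 to 2450 CPM in f/f and 387 to 581 CPM in MKO (-1.74 ± 0.42, and -1.21 without it). The gene that was higher was Gpx3, the secreted glutathione peroxidase, at 11.98, 6.09 and 5.45 CPM in f/f and 27.1, 21.6 and 53.0 CPM in MKO (2.11 ± 0.46, and 1.90 without it).

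**Figure D2:**
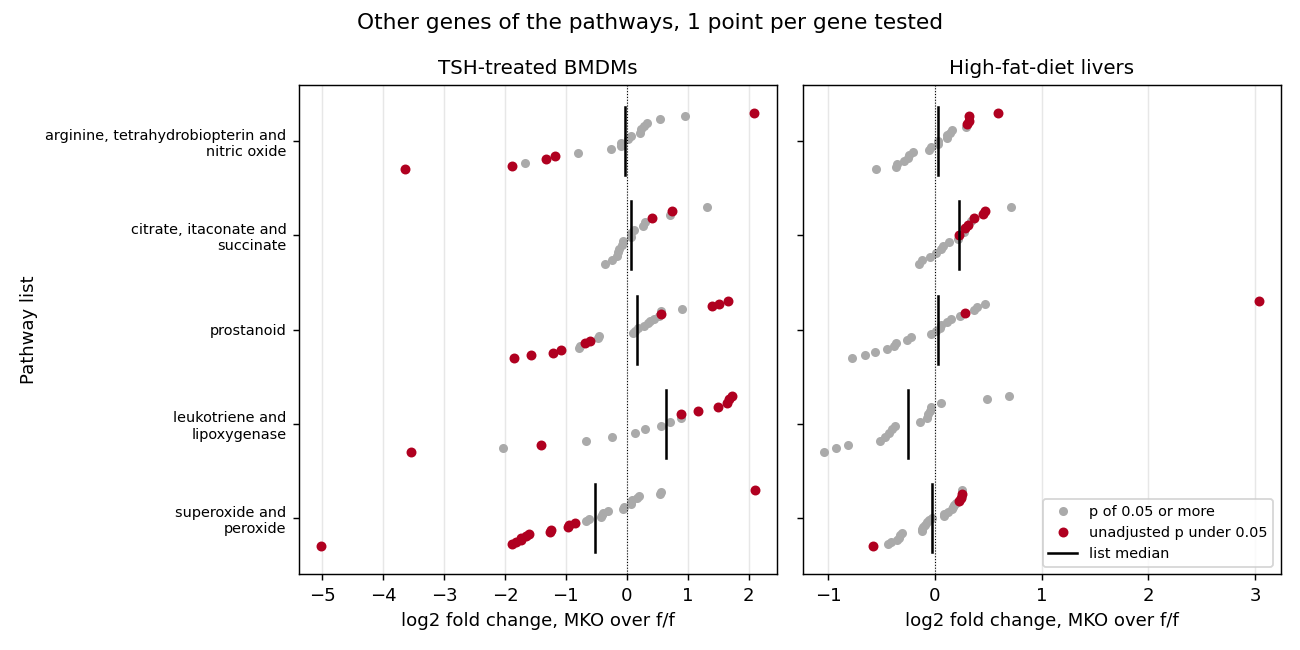
Log2 fold change (MKO over f/f, horizontal axis) of the other genes in 5 pathway lists, with 1 point per gene tested, red at an unadjusted p under 0.05, and a black line at each list median. In BMDMs (left) the superoxide and peroxide list has its median at -0.52 and the leukotriene list at 0.64, and in livers (right) the 5 medians lie between -0.25 and 0.22.

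Together, the 7 genes that were lower in MKO took 0.445%, 0.308% and 1.88% of all counts in the f/f BMDM libraries and 0.0669%, 0.0715% and 0.0878% in the MKO libraries. Replicate 3 of f/f held the highest value of all 7 and the lowest f/f value of Ptgs1, Alox5 and Alox5ap. In that library Cd14, 1 of the macrophage markers, was at 2068 CPM against 285 and 368 in the other f/f libraries. Summed, 10 neutrophil markers were at 12.2 to 264 CPM in f/f (45.3 in replicate 3) and 13.4 to 85.5 CPM in MKO BMDMs. Both maxima were mostly Mmp8, at 242 CPM in f/f replicate 2 and 76.2 CPM in MKO replicate 3. S100a8 was at 33.6 CPM in f/f replicate 3. Ly6g, Ngp, Cxcr2, Elane, Mpo and Ltf were at 0.711 CPM or less in every BMDM library. The 5 dendritic cell markers summed to 7.56 to 12.7 CPM in f/f and 5.12 to 5.99 CPM in MKO, with Ccr7 at 4.45 to 9.84 CPM in f/f and 1.74 to 2.86 CPM in MKO while Zbtb46 (2.11 to 2.35 CPM in f/f) and Flt3 overlapped between the groups and Xcr1 and Siglech were at 0.173 CPM or less. Fibroblast markers summed to 462 to 1290 CPM in f/f and 285.6 to 545 CPM in MKO. The part of these cells in the differences was not tested. In such bulk libraries, fewer cells of a type and less RNA per cell cannot be told apart.

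The genes most like 4 of the 10 across the 6 BMDM libraries, by Pearson's r of log2 CPM, are given as a description over few libraries of 2 genotypes. They were Nkapd1, Cfb (complement factor B) and Fpr2 for Nos2 (r from 0.996 to 0.997), and Olfr56, Erap1 (a peptidase that trims antigens) and Slc31a2 for Acod1 (r of 0.999 each). For Ptgs2 they were Chordc1, Cd274 (the checkpoint ligand PD-L1) and the kinase gene Src (r of 0.999 each). For Ass1 they were Polr2c, its near copy Gm5424 and Nemf (r of 0.999 each). Among these, Olfr56 (-3.12) had a log2 fold change of a size like that of Acod1, and Gm5424 (-2.13) like that of Ass1. The others had smaller ones than the gene they were matched to. These included Cfb (-3.04), Fpr2 (-3.54) and Nkapd1 (-0.45) for Nos2 (-8.75). Erap1 (-0.66) and Slc31a2 (-1.41) for Acod1 and Nemf (-0.19) for Ass1 were also smaller.

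In livers, the levels of the 10 genes did not separate by genotype, apart from Ptges at a few counts per library. Of the 10, 6 had enough counts to be tested, and 0 of the 6 passed at an unadjusted p under 0.05, where 5.18% of 15062 genes were lower and 5.27% higher in MKO. No gene passed an adjusted p of 0.05 by edgeR (1574 at an unadjusted p under 0.05). DESeq2 called 220 of 23655 genes (0.93%), a share at which none among the 10 says little, and none of the 10 was called. Ass1 was the most abundant, at 2458, 2369 and 1856 CPM in f/f and 2635, 1944 and 1746 CPM in MKO, a log2 fold change of -0.08 ± 0.20 (SE). Gch1 had 96.3, 87.9 and 104 CPM in f/f and 114, 88.8 and 106 CPM in MKO (0.10 ± 0.12), and Sod2 144, 119 and 114 CPM in f/f and 142, 124 and 138 CPM in MKO (0.10 ± 0.12). For these 3 genes the libraries of the genotypes interleaved, and the errors were small.

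Ptgs1 was at 7.68, 13.7 and 13.7 CPM in f/f livers and 11.01, 11.3 and 7.40 CPM in MKO livers (log2 fold change -0.23 ± 0.27 SE), and Alox5ap at 3.35, 5.21 and 3.98 CPM against 2.57, 4.64 and 2.44 CPM (-0.37 ± 0.32). Acod1 had only 2, 12 and 5 counts in f/f and 21, 33 and 2 counts in MKO, a log2 fold change of 1.34 ± 0.89 with an adjusted p of 0.644. By the first letter of the sample ID, whose meaning is not stated, the log2 ratio of Acod1 was -1.49 among A samples and 2.05 among B samples, so its direction differed between them. That of Ass1 was -0.47 among A and 0.30 among B samples, and with 1 or 2 samples per genotype and letter neither could be tested alone.

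The 4 genes that did not pass the filter were near the detection limit in liver. Nos2 had 13 counts in f/f replicate 3 and 0 in the other 5 livers. Ptgs2 had 2 counts in MKO replicate 3 and 0 in the other livers. On the scale of all 12 libraries, 0 counts allow up to 0.0991 to 0.141 CPM in a library (3 counts, counting error only). Ptges had 7, 10 and 8 counts in f/f and 6, 5 and 5 in MKO, which did not overlap, while 7.74% of the genes tested in liver lay lower in MKO without overlap and 9.6% higher. Alox5 had 12, 14 and 0 counts in f/f and 0, 10 and 2 in MKO. Differences at these depths were not detectable. Neutrophils, which express Alox5, were represented by markers that summed to 14.5 to 144 CPM in f/f livers and 14.9 to 27.4 CPM in MKO livers, and Clec4f of the resident macrophages was at 92.4 to 211 CPM in all livers. The part of these cells in the liver levels was not tested.

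**Figure D3:**
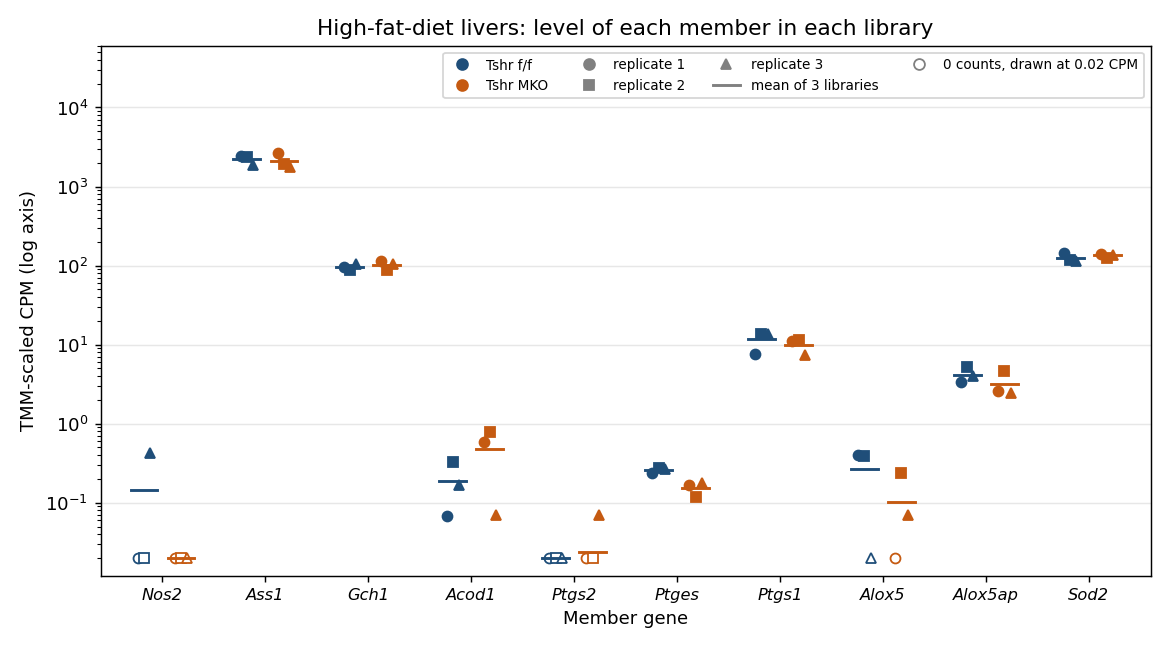
TMM-scaled CPM (log axis) of the 10 genes in the 6 liver libraries, drawn as for BMDMs, with libraries at 0 counts as open points at the foot. Ass1, Gch1 and Sod2 stand at 1746 to 2635, 87.9 to 114 and 114 to 144 CPM with both genotypes interleaved, and Nos2 and Ptgs2 are at 0 in 5 of 6 livers each.

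The medians of the 5 pathway lists in liver lay between -0.25 and 0.22. Over all genes tested in liver, 5.18% were lower and 5.27% higher in MKO at an unadjusted p under 0.05. Of 17 citrate, itaconate and succinate genes, 0 were lower and 6 higher in MKO at an unadjusted p under 0.05, with a median of 0.22, led by the succinate dehydrogenase subunit Sdhb at 92.5, 100 and 89.5 CPM in f/f and 140, 120 and 132 CPM in MKO (log2 fold change 0.47 ± 0.10 SE). Clybl, which degrades citramalyl-CoA formed from itaconate (0.45 ± 0.11), and the succinyl-CoA ligase subunit Suclg1 (0.31 ± 0.10) were among the 6. Of 21 arginine and nitric oxide genes, 0 were lower and 4 higher, with Pcbd1, which recycles tetrahydrobiopterin (0.32 ± 0.08), Ddah1 (0.59 ± 0.19) and Pts, which acts after Gch1 (0.32 ± 0.13). Of 20 prostanoid genes, 0 were lower and 2 higher, Ptges2 (0.29 ± 0.12) and Ptgds, which was at 0.671 CPM or less in every library. The counts were 0 and 0 of 16 for leukotriene genes, and 1 lower (Srxn1, -0.58 ± 0.19) and 3 higher (among them Prdx4, 0.25 ± 0.09, and Prdx2, 0.22 ± 0.09) of 27 for superoxide and peroxide genes. None of these genes passed an adjusted p of 0.05.

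**Figure D4:**
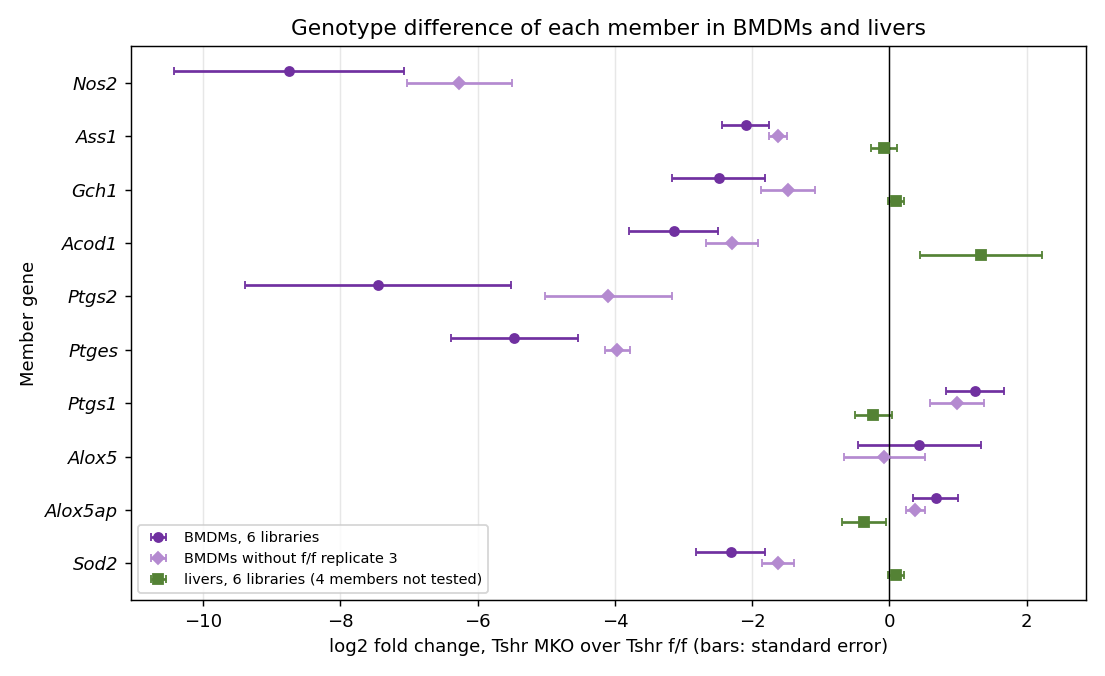
Log2 fold change (MKO over f/f) of the 10 genes, with bars for the standard error, in BMDMs with all 6 libraries (circles), in BMDMs without f/f replicate 3 (diamonds) and in livers (squares, 6 genes tested). Nos2, Ptgs2 and Ptges lie furthest to the left in BMDMs at -8.75, -7.45 and -5.46, and the liver values of Ass1, Gch1 and Sod2 lie within 0.10 of 0.

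The genotype effects in BMDMs and livers were compared with an interaction term over all 12 libraries. None of the 10 passed an adjusted p of 0.05 (lowest 0.139, for Ass1), and 1 of 17246 genes did (higher, 0.0058%). Of the 6 genes with enough counts in livers, 4 had a lower effect in BMDMs than in livers at an unadjusted p under 0.05 and 1 a higher effect, where 7.42% of genes were lower and 7.12% higher. The differences on the log2 scale were -4.51 ± 1.12 (SE) for Acod1, -2.02 ± 0.44 for Ass1, -2.59 ± 0.74 for Gch1, -2.42 ± 0.54 for Sod2 and 1.49 ± 0.55 for Ptgs1. The value for Acod1 rests on 2 to 33 counts per liver library. With the sign of the liver effect turned, as the headings of the supplementary table would have it, Acod1 moved most, to -1.77, and Ass1, Gch1, Sod2 and Ptgs1 were at -2.15, -2.38, -2.19 and 1.04. Leaving out BMDM f/f replicate 3, with the signs as labelled, gave -3.65 for Acod1, -1.54 for Ass1, -1.56 for Gch1, -1.71 for Sod2 and 1.23 for Ptgs1, none of which passed the adjusted threshold. Nos2, Ptgs2, Ptges and Alox5 entered this fit through their BMDM counts alone, and with livers at 14 counts or fewer their interaction is not read here (SE of 38.5 for Nos2 and 9.02 for Ptgs2 by edgeR). DESeq2 called 6 of the 10 (2.44% of all genes), among them Ptgs2 at an adjusted p of 0.0472 and Ptges, and without BMDM f/f replicate 2 edgeR called 4 (1.93% of all genes).

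BMDMs and livers were also compared. Culture, TSH, diet, fasting, insulin and age at collection varied along with the source and cannot be told apart from it. By edgeR, 69.3% of all 17246 genes passed an adjusted p of 0.05 between the sources in f/f and 68.5% in MKO. The counts among the 10 genes below are therefore not read as a trait of these genes. In f/f, 7 of the 10 passed an adjusted p of 0.05, 6 higher and 1 lower in BMDMs, where 32.7% of 17246 genes were higher and 36.6% lower. Among these, Nos2, Ptgs2 and Ptges had too few counts in livers to be tested there and were in the fit only through BMDMs, so that their direction was set by the filter. Of the 6 genes with enough counts in livers, 3 were higher and 1 lower. Acod1 (12.9 ± 1.06, log2, SE), Alox5ap (4.03 ± 0.38) and Sod2 (2.61 ± 0.40) were higher in BMDMs, at 12.04, 4.35 and 1.94 without BMDM f/f replicate 3. The value of Acod1 rests on 2, 12 and 5 counts in the f/f livers, near the detection limit, so its size is a description too. Ass1 was lower in BMDMs, with a log2 fold change of -4.21 ± 0.35 (SE), or -4.65 without that library. Ptgs1 (0.85) and Gch1 (-0.49) did not pass with all libraries. Without f/f replicate 3 all of these 6 genes passed, as did 67% of all genes, with Ptgs1 at 1.13 and Gch1 at -1.49. Alox5 (2.62) was likewise in the fit only through BMDMs, so its direction was also set by the filter. It did not pass with all libraries and passed without f/f replicate 3.

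The values of Nos2, Ptges and Ptgs2, whose direction was set by the filter, are descriptions. Nos2 was at 13.2 ± 2.04 (log2, SE), a value that rests on 13 counts in 1 liver library and ran from 10.8 to 19.1 with each library left out, at 10.8 without BMDM f/f replicate 3 and 19.1 without that liver. Ptges was at 10.6 ± 0.94, and at 9.16 without BMDM f/f replicate 3. Ptgs2 was at least 18134-fold higher in f/f BMDMs against the limit that 0 counts in the liver group allow, but at least 1748-fold without BMDM f/f replicate 3.

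In MKO, 9 of the 10 passed between the sources, 7 higher and 2 lower in BMDMs, where 31.8% of genes were higher and 36.8% lower. Nos2, Ptgs2, Ptges and Alox5 were again in the fit only through BMDMs. Of the other 6 genes, 3 were higher and 2 lower in BMDMs. Acod1 was higher by 8.37 ± 0.89 (log2, SE), Alox5ap by 5.07 ± 0.40 and Ptgs1 by 2.33 ± 0.41, while Ass1 (-6.23 ± 0.38) and Gch1 (-3.08 ± 0.55) were lower. The value of Acod1 rests on 21, 33 and 2 counts in the MKO livers. Sod2 (0.19 ± 0.38) did not pass, and its levels in MKO BMDMs overlapped those of the livers. As descriptions, Ptges was at 5.94 ± 0.85 and Alox5 at 4.33 ± 1.30. Nos2 was at least 35.98-fold higher in BMDMs against the limit of the liver group, or at least 17.3-fold without BMDM MKO replicate 3. Ptgs2, with 2 counts in all MKO livers, was 518 times higher in BMDMs (95% exact Poisson interval 143 to 4278, counting error of the liver counts only), or 216 times without BMDM MKO replicate 3.

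Per length, the order of the 10 genes also differed between the groups (CPM per kb of exon, all libraries scaled together, mean ± SD, n = 3). In f/f BMDMs, Acod1 (769 ± 620), Ptgs2 (506 ± 793) and Nos2 (413 ± 589) led, but their spreads overlapped and the order among them is not resolved. Ptges (144 ± 162), Sod2 (104 ± 69.7), Ass1 (67.5 ± 33.1) and Alox5ap (65.3 ± 27.0) followed within their spreads, with Gch1 (14.8 ± 13.4), Ptgs1 (7.33 ± 3.48) and Alox5 (0.537 ± 0.565) last. In MKO BMDMs, Alox5ap (105 ± 9.69) and Acod1 (87.2 ± 17.0) led with overlapping ranges, and Sod2 (20.96 ± 4.53), Ptgs1 (17.6 ± 7.18) and Ass1 (15.9 ± 0.834) came next. Ptges (3.28 ± 0.343), Ptgs2 (2.92 ± 2.95), Gch1 (2.64 ± 0.0708), Nos2 (0.967 ± 0.869) and Alox5 (0.745 ± 0.317) were last. By group mean Nos2 had rank 3 in f/f and rank 9 in MKO. Neither rank is resolved, as libraries of Nos2 overlapped those of genes next to it in the order.

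In livers, Ass1 was first at 1248 ± 176 CPM per kb in f/f and 1194 ± 278 in MKO. Gch1 (20.8 ± 1.77 and 22.4 ± 2.69) and Sod2 (17.0 ± 1.95 and 18.3 ± 1.14) were next and close to each other. Ptgs1 (4.08 ± 1.24 and 3.49 ± 0.835) and Alox5ap (3.99 ± 0.938 and 3.10 ± 1.24) were not distinct in level, and the other 5 genes were at or below 0.253 on average. The liver order of the 5 leading genes was the same in both genotypes.

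**Figure D5:**
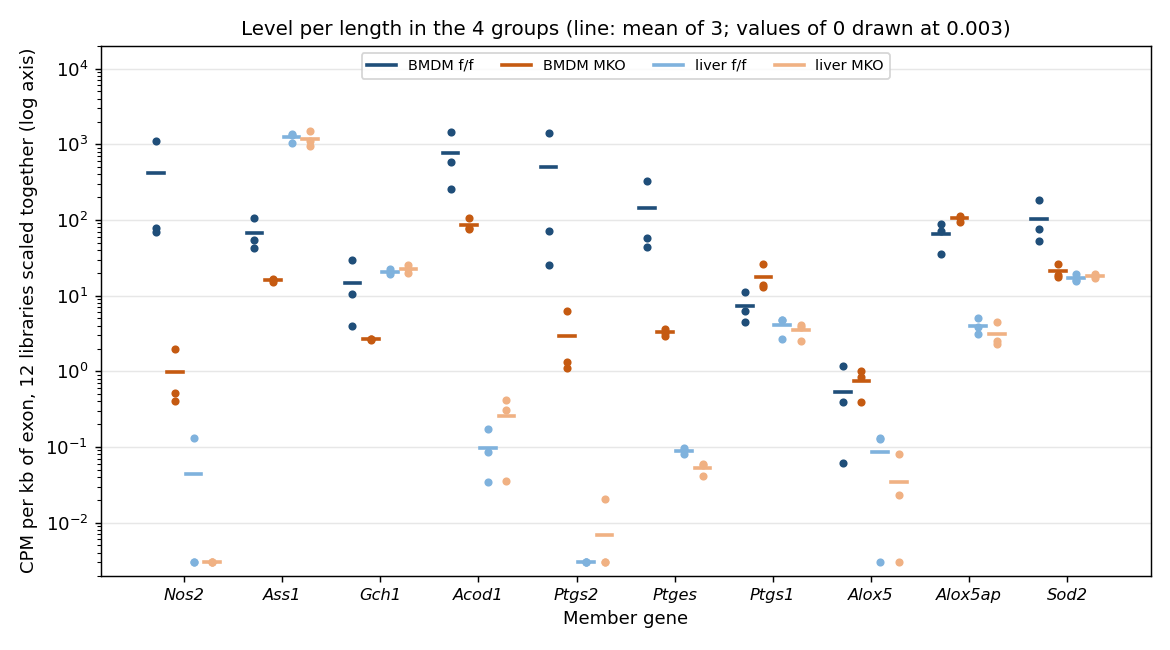
CPM per kb of exon (log axis) of the 10 genes in the 4 groups, with 1 point per library and a line at the mean of 3; values of 0 are drawn at the foot. Ass1 is highest in liver (1248 and 1194), while Acod1, Ptgs2 and Nos2 are highest in f/f BMDMs (769, 506 and 413) and near 0 in liver.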

How the data were processed

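The deposited values are counts of reads per gene, made by the authors for 12 strand-specific libraries (6 of BMDMs and 6 of livers). The processing notes name FastQC 0.11.2, STAR, StringTie and mm10, and the study's methods name Skewer. The counting program, its annotation and its strand setting are not given in the sources used here, so reads of Ptgs1, Ptges, Alox5ap and Gch1 may include those of overlapping genes. Genes were tested on the counts with edgeR 4.0.16 (TMM, filterByExpr, robust quasi-likelihood) in R 4.3.3, and p-values were adjusted by Benjamini-Hochberg across all genes tested, separately for BMDMs and for livers and over all 12 libraries for the sources and the interaction. Standard errors were taken as the absolute log2 fold change divided by the root of the F statistic. The DEGseq model of the study takes no spread between replicates and was not used here. The script was tested on simulated data.

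Alternatives were RLE scaling, no filter, replicate number as a block, DESeq2 1.42.0, other sets of libraries in the fit, the sample ID letter (liver) and each library left out. The bounds and ratio without replicate 3 and the interaction with the liver sign turned were added after seeing the data. Gene positions and exon lengths are from GENCODE M21 (GRCm38), which holds 55154 of the 55335 genes, and promoters from RefSeq. Figures were made with matplotlib 3.10.9. The genes, pathway lists and tests were chosen with earlier results of these data known. The genes named were all 10 members, the pathway genes past the adjusted threshold or else the 3 with the lowest unadjusted p under 0.05 in each list and source, the 3 genes most like Nos2, Acod1, Ptgs2 and Ass1, and defining markers. Depth was 28962878 to 40954211 counts. With TMM scaling over all 12 libraries, 3 counts in a library are 0.0498 to 0.141 CPM. That scale was used for markers, detection limits, values per kb and the bounds and ratios between the sources. Other CPM of the 10 genes and of the pathway genes used the TMM factors of their own source.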

Additional observations from a re-analysis of the deposited data

How the results depend on the processing

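In BMDMs, 0 of the 10 genes were called by edgeR, against 5 by DESeq2 and 3 with all 12 libraries in 1 fit, and 0 to 1 with each library left out (1, Ptges, without f/f replicate 3). For the interaction, 0 were called by edgeR, 6 by DESeq2, and 0 to 4 with each library left out (4 without BMDM f/f replicate 2 and 1 without BMDM f/f replicate 3). Over all genes in BMDMs, edgeR called 0, DESeq2 1100, the 12-library fit 150, and edgeR 13 without f/f replicate 2 and 2 without f/f replicate 3. Over all genes in livers, edgeR called 0 and DESeq2 220. For the interaction over all genes, edgeR called 1, DESeq2 678, and edgeR 341 without BMDM f/f replicate 2, 62 without f/f replicate 1 and 16 without f/f replicate 3. The cause of these differences was not tested. The direction turned for 3 values that had not passed the test: Alox5 in BMDMs (-0.0771 without f/f replicate 3, in a range of -0.0771 to 1.69 with each library left out), Ass1 in livers (0.0403 without liver MKO replicate 3, in a range of -0.275 to 0.0403) and Sod2 between the sources in MKO (-0.202 with the replicate block). RLE scaling and no filter on low counts moved no count of called members.

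Same-numbered libraries gave no sign of pairing, which so few correlations cannot exclude. Their deviations from the group means correlated at 0.0959, 0.0126 and 0.102 in BMDMs and -0.0562, 0.217 and -0.0209 in livers. Differently numbered libraries of opposite genotype ran from -0.191 to 0.153 in BMDMs and from -0.291 to 0.281 in livers. With the replicate number as a block, 0 of the 10 were called in BMDMs, 0 in livers, 7 and 8 between the sources in f/f and MKO, and 0 for the interaction, and 9045 and 9072 genes in all were called between the sources, against 11944 and 11818 without the block. In livers, depth limits Nos2, Ptgs2, Ptges and Alox5, at 14 counts or fewer per library.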
